A study of Homo sapiens with 2 samples.

Results

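The genes described are those that encode the proteasome and the proteins that assemble, activate or inhibit it, chosen by symbol as PSMA, PSMB, PSMC, PSMD, PSME, PSMF or PSMG with a number, plus POMP. This rule used symbols and no measured value other than a listed cluster, but it was set with earlier results of these data known. Of 10145 genes with a cluster in either library, 42 fitted the rule. Of these, 40 were listed with ZC3H7A tagged, 37 with ZC3H7B tagged and 35 in both libraries. RefSeq holds 49 symbols of this form, and the other 7 (PSMA8, PSMB8, PSMB9, PSMB11, PSMC1, PSMD5 and PSME1) were listed in neither library under these names.

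The proteasome is the protease that degrades proteins tagged with ubiquitin in the cytosol and nucleus. Its core particle is a barrel of stacked rings, with outer rings of alpha subunits that gate the entry and inner rings of beta subunits that hold the proteolytic sites. The regulatory particle caps the barrel, and its ATPases unfold the substrate while its other subunits bind ubiquitin and remove it. Alternative activators can replace this cap, and dedicated chaperones build both the core and the base of the cap.

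PAR-CLIP, in which RNA labelled with 4-thiouridine is crosslinked to protein by light and recovered with it, was used on a pair of related CCCH zinc finger proteins. The cells were HEK293, a line from human embryonic kidney that carries Flag/HA-ZC3H7A or Flag/HA-ZC3H7B as an overexpressed transgene, and doxycycline was given in both groups. Each protein has 1 library and there is no untagged or uninduced control, so values come without replicates and the proteins could not be compared by a test. The ZC3H7A library held 3779662 reads in 51808 clusters, and the ZC3H7B library held 2409465 reads in 99805 clusters, a cluster being a group of overlapping reads with T-to-C conversions. Reads outnumbered distinct reads 12.6 to 1 with ZC3H7A tagged and 1.99 to 1 with ZC3H7B tagged, and on proteasome genes these values were 13.3 and 2.05. ZC3H7A itself held 82704 reads in its own library and 158 in the other, and ZC3H7B held 3768 reads in its own and 1362 in the other. Levels are given as RPM, the reads in the clusters of a gene per 1000000 reads on genes, and are not corrected for transcript length. Intervals are exact Clopper-Pearson 95% intervals that cover counting error only, and PCR copies and clusters shared by 1 gene make them too narrow even for that. RNA abundance was not analysed here, so more transcript and more binding per transcript cannot be told apart.

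Proteasome genes took a larger share of the ZC3H7A library than of the ZC3H7B library by each of 3 counts. They held 23029 reads with ZC3H7A tagged, or 0.609% of the total (0.601 to 0.617%), and 8985 reads with ZC3H7B tagged, or 0.373% (0.365 to 0.381%). In distinct reads the shares were 0.577% (0.551 to 0.605%) and 0.362% (0.351 to 0.372%). In clusters they were 0.473% (0.416 to 0.536%) and 0.340% (0.305 to 0.378%). The intervals of the libraries do not overlap in any of these counts. The members were also a larger share of the genes listed, 0.488% with ZC3H7A tagged and 0.404% with ZC3H7B tagged. The median member held 366 reads in 6 clusters with ZC3H7A tagged and 162 reads in 8 clusters with ZC3H7B tagged, against 135.5 reads in 4 clusters and 82 reads in 7 clusters for the median gene.

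**Figure D1:**
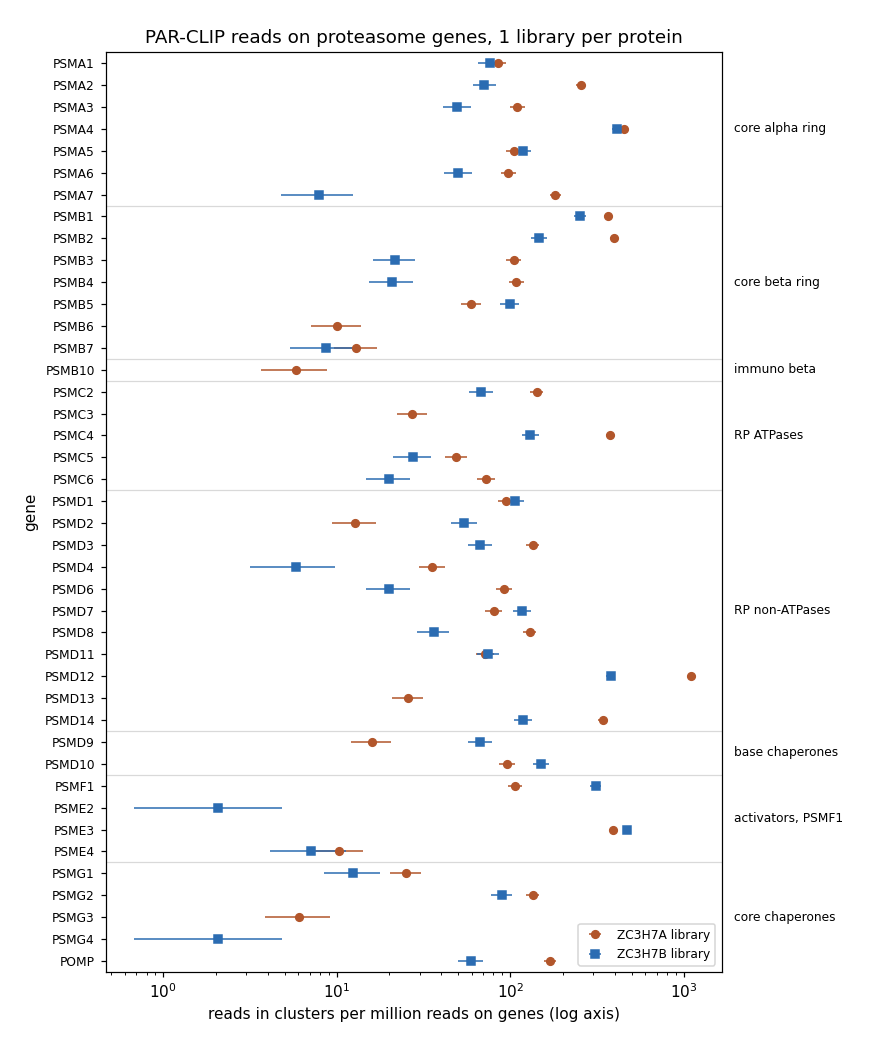
Reads in clusters in RPM (horizontal, log axis) for each proteasome gene (vertical, grouped by role; RP is the regulatory particle), with circles for the ZC3H7A library, squares for the ZC3H7B library and exact 95% counting intervals. A missing mark means that the gene had no cluster in that library; PSMD12 stands highest with ZC3H7A tagged, at 1105 RPM, and PSME3 with ZC3H7B tagged, at 471.

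Gene by gene, most members lay on the ZC3H7A side of the median gene. Log2 ratios set the reads with ZC3H7B tagged over the reads with ZC3H7A tagged and were scaled so that the median of the 7168 genes with at least 20 reads summed is 0. All 35 members listed in both libraries passed that minimum. Their median log2 ratio was -1.12, which is 2.17-fold towards ZC3H7A, where the middle 50% of all genes ran from -1.05 to 1.03. Of the 35, 26 (74.3%) lay below 0, against 50.0% of all genes.

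A gene was called higher in a library where its whole interval lay beyond 2-fold. By this rule 14 of 35 members (40.0%) were higher in the ZC3H7A library, where 18.0% of all genes were. A further 3 members (8.57%) were higher in the ZC3H7B library, where 18.2% of all genes were. The 3 are PSMD2, PSMD9 and PSMF1. With distinct reads in place of reads the median was -1.01, and 9 of 35 (25.7%) were higher in the ZC3H7A library, where 10.1% of all genes were. All 9 are among the 14. None of the 35 was higher in the ZC3H7B library by distinct reads, where 7.28% of all genes were. By mean reads per cluster the median was -0.33, with 5 members called towards ZC3H7A (background 4.65%) and 1 towards ZC3H7B (background 6.18%). Intervals for mean reads per cluster take the cluster numbers as fixed and cover the counting error of reads alone, so they are too narrow for that measure. By number of clusters the median was -0.64 and no member was called (background 0.223% and 0.321%).

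**Figure D2:**
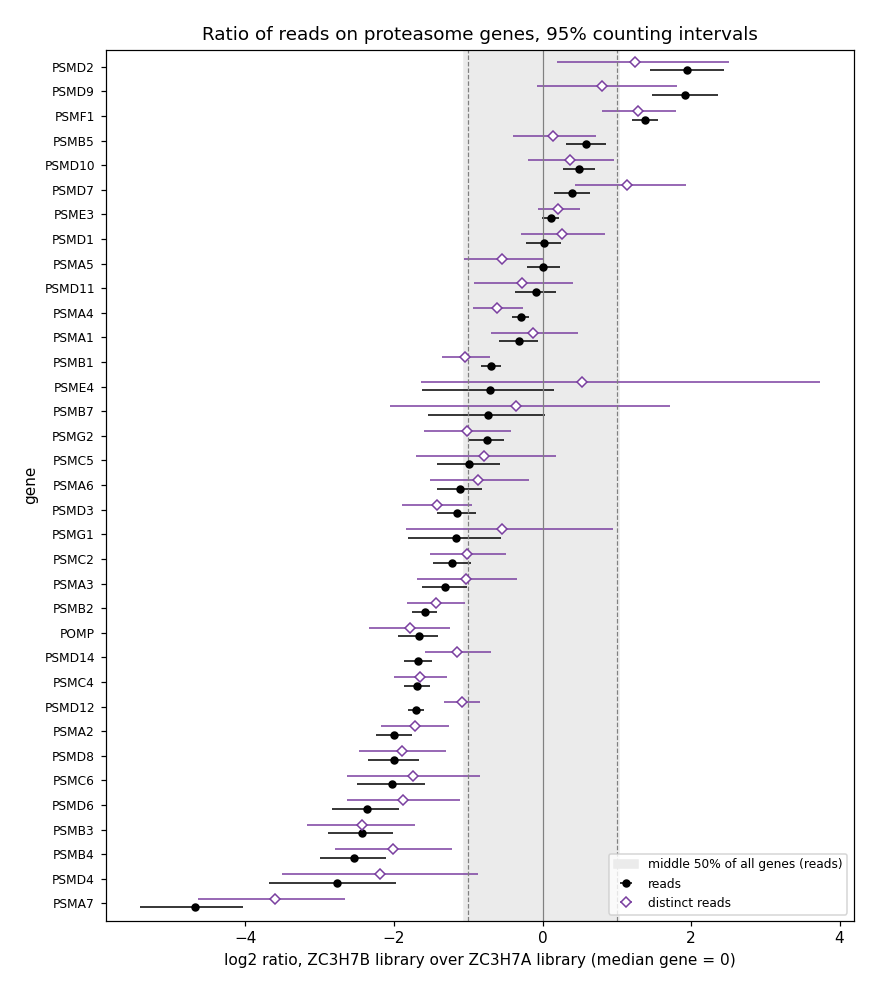
Log2 ratio of the ZC3H7B library over the ZC3H7A library (horizontal, median gene at 0) for the 35 proteasome genes listed in both (vertical, ordered by the ratio of reads), with filled circles for reads, open diamonds for distinct reads and bars for 95% counting intervals. Dashed lines mark 2-fold and the grey band the middle 50% of all genes; 26 of the 35 circles lie left of 0, from PSMA7 at -4.68 to PSMD2 at 1.94 on the right.

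The alpha ring of the core held the member farthest towards ZC3H7A. All 7 alpha subunit genes listed were in both libraries, with a median log2 ratio of -1.12. Of the 7, 3 were called higher in the ZC3H7A library, where 18.0% of all genes were. PSMA7 had 687 reads in 3 clusters (182 RPM) with ZC3H7A tagged and 19 reads in 2 clusters (7.89 RPM) with ZC3H7B tagged, a log2 ratio of -4.68 (-5.42 to -4.03). Counted in distinct reads, 38 and 13, it stood at -3.60 (-4.64 to -2.66), and every cluster on it lay in coding sequence in both libraries. PSMA2 had 961 reads in 10 clusters and 171 reads in 8, at -2.00 (-2.24 to -1.76), or -1.72 with distinct reads. PSMA3, with 415 and 119 reads, stood at -1.31 (-1.62 to -1.01), close to the 2-fold line, and was not called with distinct reads, at -1.03 (-1.70 to -0.34). The other alpha genes lay nearer the median gene. PSMA4, the alpha gene with most reads, had 1715 and 993 reads (454 and 412 RPM) and stood at -0.30 (-0.41 to -0.18), but at 0.30 (0.19 to 0.41) by mean reads per cluster. PSMA5 had 396 reads in 6 clusters (105 RPM) and 284 reads in 13 (118 RPM), at 0.01 (-0.21 to 0.24). PSMA6 stood at -1.12, with 369 and 121 reads, and PSMA1 at -0.32, with 322 and 183.

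In the beta ring, which holds the active sites, 5 of 6 genes compared lay below 0 and PSMB5 above it. The median was -1.16. By reads and by distinct reads alike 3 of 6 were called higher in the ZC3H7A library, against 18.0% and 10.1% of all genes. PSMB4, a structural subunit, had 409 reads (108 RPM) with ZC3H7A tagged and 50 (20.8 RPM) with ZC3H7B tagged, in 4 clusters each, at -2.54 (-2.99 to -2.11). PSMB3, another subunit without an active site, had 396 reads in 6 clusters and 52 reads in 3, at -2.44 (-2.88 to -2.02). PSMB2 had 1492 and 353 reads and stood at -1.59 (-1.76 to -1.42), although its clusters numbered 7 and 13. PSMB1, a subunit without an active site that was among the leading 10 members of both libraries by reads, had 1387 reads in 9 clusters (367 RPM) and 609 reads in 8 (253 RPM). It stood at -0.69 (-0.83 to -0.56), and -1.04 (-1.36 to -0.71) with distinct reads, and was not called. By mean reads per cluster its sign turned, to 0.45 (0.31 to 0.59), an interval that takes its 9 and 8 clusters as fixed. PSMB5, which carries the chymotrypsin-like site, had 224 and 239 reads (59.3 and 99.2 RPM), with a log2 ratio of 0.59 (0.32 to 0.86). By mean reads per cluster it was the 1 member called higher in the ZC3H7B library, at 1.34. The other catalytic genes were sparse. PSMB7, the trypsin-like subunit, had 49 reads in 1 cluster and 21 in 3, at -0.73 (-1.54 to 0.04), and PSMB6, the caspase-like subunit, had 38 reads in 1 cluster with ZC3H7A tagged and no row in the other table. PSMB10, the only subunit of the immunoproteasome listed, had 22 reads in 1 cluster with ZC3H7A tagged, made of 3 distinct reads.

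All 4 ATPase genes compared lay below 0, from -0.99 to -2.03, with a median of -1.45. PSMC4 had 1422 reads in 11 clusters (376 RPM) and 314 reads in 12 (130 RPM), at -1.69 (-1.87 to -1.51). PSMC6 had 275 and 48 reads, at -2.03 (-2.50 to -1.58). Both were called higher in the ZC3H7A library by reads, where 18.0% of all genes were. By distinct reads PSMC4 was called too, at -1.64, where 10.1% of all genes were, while PSMC6 stood at -1.75 (-2.63 to -0.85). PSMC2, with 536 and 164 reads, stood at -1.22 (-1.48 to -0.96), and PSMC5, with 184 and 66, at -0.99. PSMC3 was listed for ZC3H7A alone, with 103 reads in 4 clusters.

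The other subunits of the regulatory particle covered most of the range seen among the members. Of 10 compared, 5 were called towards ZC3H7A and 1 towards ZC3H7B, where 18.0% and 18.2% of all genes were. The median was -1.41. PSMD12, a subunit of the lid, had the most reads of any member in the ZC3H7A library, 4178 in 19 clusters (1105 RPM), and 912 reads in 27 clusters (379 RPM) in the ZC3H7B library. It stood at -1.70 (-1.81 to -1.60), but its reads in the ZC3H7A library were made of 217 distinct reads, and by distinct reads (424 in the other library) it stood at -1.09 (-1.33 to -0.85) and was not called. PSMD14, which encodes the deubiquitinase of the lid, had 1287 and 287 reads, at -1.67 (-1.86 to -1.49), and likewise was not called with distinct reads, at -1.14 (-1.58 to -0.69). PSMD4, a ubiquitin receptor, had 134 reads in 4 clusters and 14 reads in 1, at -2.77 (-3.68 to -1.97), or -2.18 (-3.50 to -0.87) with distinct reads. PSMD6 and PSMD8, both lid genes, were called by reads and by distinct reads, at -2.37 (-2.83 to -1.93) and -2.00 (-2.34 to -1.67) in reads.

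Not all genes of the regulatory particle lay on that side. PSMD2, a scaffold of the base that binds ubiquitin-like domains, had 48 reads in 2 clusters (12.7 RPM) with ZC3H7A tagged and 131 reads in 10 clusters (54.4 RPM) with ZC3H7B tagged, at 1.94 (1.45 to 2.45). Of these clusters, 2 of 2 and 9 of 10 lay in coding sequence. Its 8 and 79 distinct reads gave 1.25 (0.20 to 2.51), which does not clear 2-fold. PSMD1, the other scaffold, had 355 reads in 7 clusters and 255 in 16, at 0.02 (-0.22 to 0.25). PSMD7, the inactive partner of PSMD14, stood at 0.39, with 303 reads in 4 clusters and 283 in 13. PSMD11 stood at -0.09, with 270 and 180 reads, and PSMD3 at -1.16, with 508 and 162. The signs of PSMD11, PSMD1 and PSMA5 rest on the scaling, since each lies within 0.1 of the median gene.

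Genes of the base chaperones, the alternative activators and the inhibitor lay at or above the median gene, except PSME4. PSMD9, a chaperone of the base, had 60 reads in 2 clusters (15.9 RPM) and 161 reads in 9 (66.8 RPM), at 1.92 (1.48 to 2.37), and 0.80 (-0.08 to 1.81) with distinct reads. PSMD10, also a base chaperone and known as gankyrin, had 363 reads in each library, in 5 and 14 clusters, at 0.49 (0.28 to 0.71). PSMF1, which encodes the inhibitor PI31, had 403 reads in 6 clusters (107 RPM) and 747 reads in 30 clusters (310 RPM), at 1.38 (1.21 to 1.56). With distinct reads it had 1.28 (0.80 to 1.79). Its mean reads per cluster gave 0.04, so the difference in reads came with a larger number of clusters. PSME3, a nuclear activator that works without ATP, led the members in the ZC3H7B library with 1134 reads in 22 clusters (471 RPM), against 1479 in 20 (391 RPM) in the ZC3H7A library, at 0.11 (-0.00 to 0.22). PSME4, the large activator known from spermatogenesis, had 39 reads in 1 cluster and 17 in 3, at -0.71 (-1.62 to 0.15).

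The chaperones that build the core lay below 0. POMP, the maturation factor of the beta rings, had 640 reads (169 RPM) and 143 reads (59.3 RPM), in 6 clusters each. It stood at -1.67 (-1.94 to -1.41) and was called by distinct reads too, at -1.79 (-2.33 to -1.24). PSMG2 and PSMG1, which form a dimer that guides the alpha ring, stood at -0.75 (-0.98 to -0.51), with 508 and 215 reads, and -1.17 (-1.81 to -0.56), with 95 and 30. PSMG3 was listed for ZC3H7A alone (23 reads in 1 cluster) and its partner PSMG4 for ZC3H7B alone (5 reads in 1 cluster), all in the 3' UTR.

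Of the 42 members, 5 (11.9%) were listed for ZC3H7A alone and 2 (4.76%) for ZC3H7B alone, against 9.72% and 19.1% of all genes. They had few distinct reads. For ZC3H7A these were PSMB6, PSMB10, PSMC3, PSMD13 (97 reads in 2 clusters) and PSMG3, with 2 to 10 distinct reads each. For ZC3H7B they were PSME2 and PSMG4, with 5 reads each, made of 3 and 2 distinct reads. The lowest read sums of any listed gene were 5 and 4, so the absence of these genes from a table is not a count of 0 reads. Pseudogenes of members were listed as genes of their own. PSMD12P had 147 and 9 reads, PSMA2P2 44 and 5, and PSMC1P1 11 reads in the ZC3H7B library alone. Reads shared by a gene and its pseudogene are uncertain between them. The sums of PSMD12P and PSMA2P2 are small beside those of PSMD12 and PSMA2. PSMC1 itself was listed in neither library, and whether the reads on PSMC1P1 came from PSMC1 was not tested.

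Coding sequence held a larger share of the clusters on proteasome genes than on other genes. Coding sequence held 151 of 245 clusters (61.6%, 55.2 to 67.8%) with ZC3H7A tagged, against 42.6% (42.2 to 43.0%) on all other genes. With ZC3H7B tagged it held 160 of 339 (47.2%, 41.8 to 52.7%), against 29.5% (29.2 to 29.8%). The 3' UTR held 45 of 245 (18.4%, 13.7 to 23.8%), against 39.9%, and 113 of 339 (33.3%, 28.3 to 38.6%), against 55.9%. In both libraries the intervals of proteasome and other genes do not overlap for either region, although the clusters of a gene share their transcript and region lengths were not taken into account. More clusters lay in coding sequence than elsewhere on 27 of 40 members with ZC3H7A tagged and on 21 of 37 with ZC3H7B tagged, or 67.5% and 56.8%, against 36.3% and 22.3% of all genes.

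**Figure D3:**
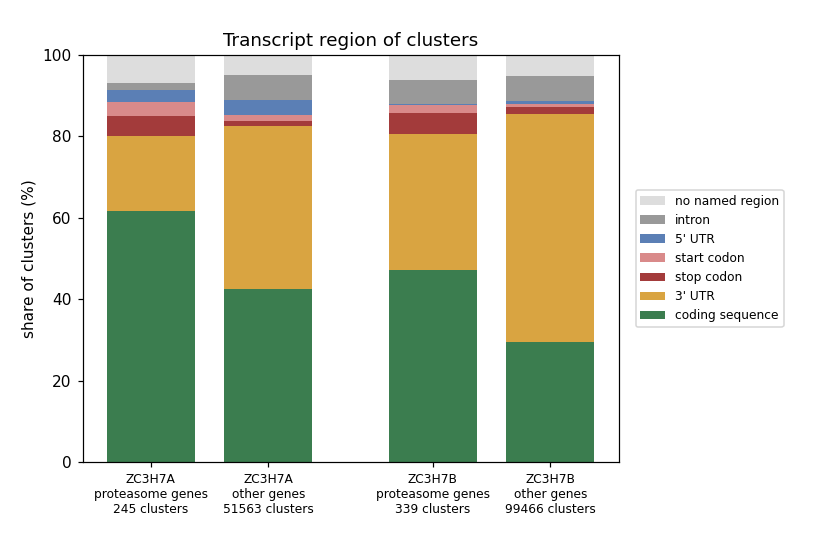
Share of clusters (vertical, %) in each transcript region for proteasome genes and for all other genes, with 1 pair of bars per library. Coding sequence (lowest segment) holds 61.6% and 47.2% on proteasome genes against 42.6% and 29.5% on other genes.

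A few members held many of the 3' UTR clusters. PSME3 had 13 of 20 clusters in its 3' UTR with ZC3H7A tagged and 15 of 22 with ZC3H7B tagged. PSMD12 had 8 of 19 and 18 of 27, and PSMF1 3 of 6 and 21 of 30. Together these 3 genes held 24 of the 45 and 54 of the 113 clusters in 3' UTRs. Without them the 3' UTR share of the members was 10.5% and 22.7%, and the coding share was 66.5% and 54.2%. PSMB2 had 2 of 7 and 8 of 13 clusters in the 3' UTR, PSMD10 2 of 5 and 7 of 14, PSMD11 4 of 9 and 6 of 11, and PSMD9 1 of 2 and 8 of 9.

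By role, a small share of the clusters lay in 3' UTRs on the core alpha genes and the ATPase genes. With ZC3H7A tagged no cluster of 45 on alpha genes lay in a 3' UTR, which allows a share of up to 6.67% (taken as 3 clusters of 45), and 32 lay in coding sequence. With ZC3H7B tagged 11 of 61 lay in 3' UTRs, 5 of them on PSMA5, and 35 in coding sequence. The ATPase genes had 1 of 35 and 2 of 29 clusters in 3' UTRs, and 26 and 21 in coding sequence. In 3' UTRs the core beta genes had 3 of 34 and 10 of 38 clusters, and the core assembly chaperones 2 of 16 and 4 of 19. The regulatory particle genes other than ATPases and chaperones had 20 of 80 and 35 of 113 there. On PSMC5, PSMA7 and PSME4 each cluster lay in coding sequence in both libraries. The share was larger on the activators and PSMF1, with 16 of 27 (59.3%) and 36 of 56 (64.3%), and on the base chaperones, with 3 of 7 (42.9%) and 15 of 23 (65.2%).

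**Figure D4:**
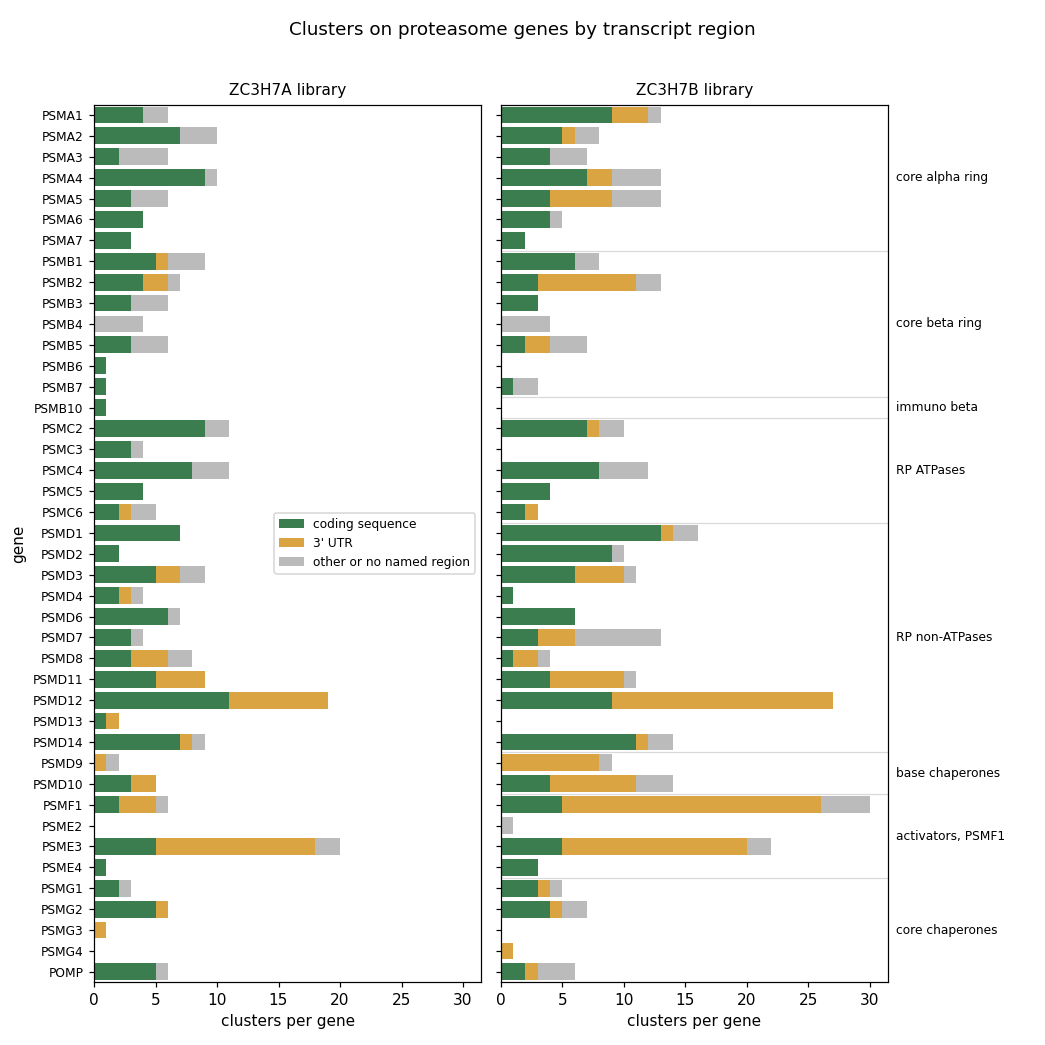
Number of clusters (horizontal) on each proteasome gene (vertical, grouped by role), with the ZC3H7A library in the left panel and the ZC3H7B library in the right, split into coding sequence, 3' UTR and all other or no named region. PSME3, PSMD12 and PSMF1 carry the longest 3' UTR segments, and no alpha subunit gene has one with ZC3H7A tagged.

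Within single genes the coding share was more often higher with ZC3H7A tagged. Among the 29 members with at least 3 clusters in both libraries 20 (69.0%) had the higher coding share with ZC3H7A tagged, 7 with ZC3H7B tagged, and 2 had equal shares. Over all 4517 such genes 67.8% had it with ZC3H7A tagged, so the members' share is near the background. For the 3' UTR, 19 of 29 members (65.5%) and 69.2% of all such genes had the higher share with ZC3H7B tagged. POMP had 5 of 6 clusters in coding sequence with ZC3H7A tagged and 2 of 6 with ZC3H7B tagged, and PSMA4 had 9 of 10 and 7 of 13. PSMD14 had 7 of 9 and 11 of 14, which is nearly equal, and PSMB1, with 5 of 9 and 6 of 8, had the higher share with ZC3H7B tagged. Of the 35 members in both libraries, 23 (65.7%) had more clusters with ZC3H7B tagged, where 74.2% of all genes did.

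Smaller regions held few clusters each. Stop codons held 12 of 245 clusters (4.90%, 2.56 to 8.40%) and 18 of 339 (5.31%, 3.18 to 8.26%) on proteasome genes, against 1.44% and 1.84% on other genes. In the ZC3H7B library these 18 lay on 15 of the 37 genes, with 2 each on PSMA2, PSMB5 and PSME3. Start codons held 9 (3.67%, 1.69 to 6.86%) and 6 (1.77%, 0.652 to 3.81%), against 1.42% and 0.641%. Introns held 4 (1.63%, 0.447 to 4.13%) and 20 (5.90%, 3.64 to 8.96%), against 6.20% and 6.13%. Of those 20 in the ZC3H7B library, PSMD7 held 6 and POMP 3. The 5' UTR held 7 clusters on 6 genes with ZC3H7A tagged and 1, on PSMD7, with ZC3H7B tagged. No named region was given for 17 and 21 clusters, among them all 4 on PSMB4 in each library, whose class in the authors' tables is a retained intron.

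Members with more of their clusters in the 3' UTR tended to have higher ratios, as genes did in general. Across the 29 members with at least 3 clusters in both libraries, the 3' UTR share of the pooled clusters and the log2 ratio of reads had a Spearman's rho of 0.43, against 0.36 across all 4517 such genes. With distinct reads the values were 0.40 and 0.36. These are correlations across genes of the same pair of libraries, genes are not independent replicates, and cluster number enters both measures. PSMB4 entered with a 3' UTR share of 0%, although none of its clusters had a named region. The order was loose. PSMD2, with the highest ratio (1.94) and no 3' UTR cluster, had too few clusters to enter. PSMF1 and PSME3, each with 66.7% of pooled clusters in the 3' UTR, stood at 1.38 and 0.11, while PSMD12, PSMB2 and PSMD8 had large 3' UTR shares and ratios of -1.70, -1.59 and -2.00.

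**Figure D5:**
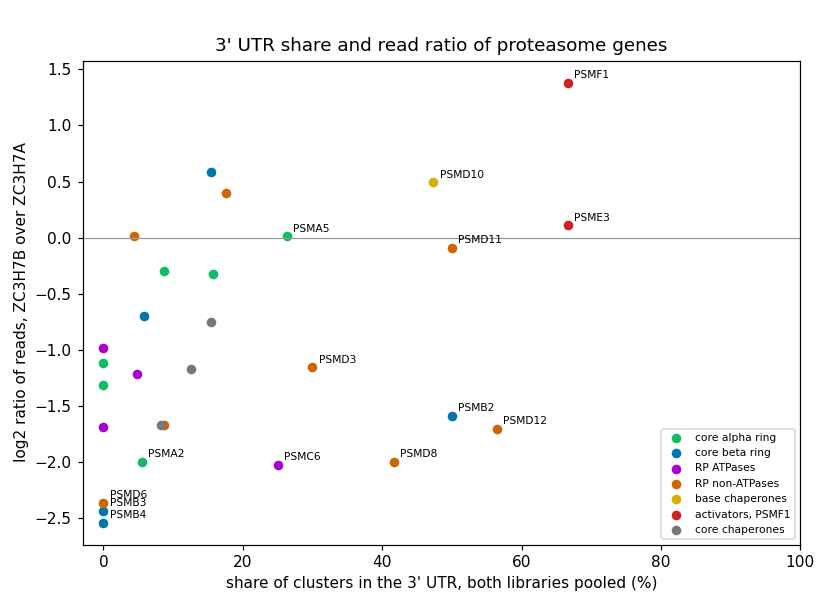
Share of clusters in the 3' UTR with both libraries pooled (horizontal, %) against the log2 ratio of reads, ZC3H7B over ZC3H7A (vertical), with 1 point for each of the 29 proteasome genes with at least 3 clusters in both libraries, coloured by role. PSMF1 lies at the upper right at 1.38. PSMB4, PSMB3 and PSMD6, without a 3' UTR cluster, lie at the lower left between -2.54 and -2.37, but no cluster on PSMB4 had a named region. PSMA7, PSMB7, PSMD2, PSMD4, PSMD9 and PSME4 have too few clusters to be shown.

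Conversion marks the crosslinked base, and its share on proteasome genes lay near that on all genes. The T-to-C share of the reads, averaged over the clusters of a gene and weighted by reads, was 93.0% on the members with ZC3H7A tagged and 90.1% with ZC3H7B tagged, against 92.0% and 89.2% on all genes. The median member stood at 94.9% and 91.8%, against 97.4% and 91.1% for the median gene. PSMA6 was lowest in both libraries, at 66.9% and 77.0%, and was the only member under 80%. PSMF1 had 81.6% with ZC3H7A tagged and 90.6% with ZC3H7B tagged. A share of 100% was found on 9 of 40 members (22.5%) with ZC3H7A tagged, against 38.1% of all genes, the highest in depth being PSMC5 with 15 distinct reads. With ZC3H7B tagged it was found on 3 of 37 (8.11%), against 16.3% of all genes. They were PSMB3, PSME2 and PSMG4, with 30, 3 and 2 distinct reads. The threshold of the cluster caller on conversion is not given in the sources used here, and any such threshold raises these shares.

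Other genes of the pathway, taken from a list of 33 symbols of ubiquitin genes, proteasome cofactors, shuttle factors and regulators, had a median log2 ratio of -0.24 over the 23 that could be compared, of 27 listed in either library. Of the 23, 16 (69.6%) lay below 0, against 50.0% of all genes. By reads 7 (30.4%) were called towards ZC3H7A and 2 (8.70%) towards ZC3H7B, where 18.0% and 18.2% of all genes were. With distinct reads 6 (26.1%) and 2 were called, against 10.1% and 7.28% of all genes. The 4 with most reads lay below 0. They are UBE3A, a ubiquitin ligase, at -0.24 (1290 and 776 reads), NFE2L2, a stress-response transcription factor, at -0.70 (1399 and 610), USP14, a deubiquitinase of the proteasome, at -0.61 (1151 and 537), and VCP, the unfoldase that delivers substrates, at -1.74 (-1.93 to -1.56; 1354 and 288). Of these 4 only VCP was called. The genes that follow were chosen after their values were seen. NFE2L1, the transcription factor that raises proteasome gene expression when the proteasome is inhibited, had 1240 reads in 25 clusters with ZC3H7A tagged and 304 in 22 with ZC3H7B tagged, at -1.54 (-1.72 to -1.35). DDI2, the protease that activates NFE2L1, went the other way. It had 325 reads in 12 clusters and 858 in 47, at 1.89 (1.71 to 2.08), and 9 and 46 of these clusters lay in its 3' UTR. UBE3C, a ligase that works on the proteasome, had 164 reads in 6 clusters and 748 in 40, at 2.68 (2.44 to 2.93). SHFM1, the small lid subunit now called SEM1, had 215 and 24 reads, at -2.67 (-3.34 to -2.06), and ADRM1, a ubiquitin receptor, had 46 and 12, at -1.45 (-2.50 to -0.51). Of this pair only SHFM1 was called.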

How the data were processed

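Each of ZC3H7A and ZC3H7B, Flag/HA-tagged, has 1 PAR-CLIP library, and both are numbered replicate 1. Per the labels' protocols, cells received 1 µg/mL doxycycline for 24 h and 100 µM 4-thiouridine for 16 h, were irradiated at 365 nm, and RNA was cut with RNase T1 and read as 50 bp single ends. The submitters' processing notes name build hg19, STAR 2.5.2a, Bowtie and cutadapt, without their roles, and the cluster caller is not given in the sources used here. Per the file headers, the deposited counts are clusters, reads and distinct reads per gene and clusters per region. The exon column was read as coding sequence. The deposited values include the sum and the median of the T-to-C fractions of a gene's clusters. The shares given here are that sum divided by the number of clusters.

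Rows for classes of repeats and small RNAs (282 of 8486 and 407 of 9566) were left out. Ratios were computed over all genes, with exact 95% intervals, and scaled to the median. For mean reads per cluster, the interval of the reads was shifted by the ratio of cluster numbers, without error for that ratio. Alternatives were distinct reads, mean reads per cluster, cluster number, TMM and total scaling, other minimums (none or 50 reads summed) and missing genes at 0. Listed members were also counted at minimums of 10 and 50 reads. Members were matched to RefSeq symbols (42 of 42, GRCh38.p14, names only). Members, roles and lists were chosen with earlier results of these data known. Named with values were, by rule, the 10 leading members of each library by reads, the 5 highest and the 5 lowest ratios, members listed once and members called, plus the 4 pathway genes with most reads. The ratio step was tested on simulated data with independent reads, which cannot show how PCR copies affect the calls. Python 3.11.15, pandas 2.3.3, numpy 2.4.6, scipy 1.17.1, matplotlib 3.10.9 and edgeR 4.0.16 (TMM factors only) in R 4.3.3 were used.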

Additional observations from a re-analysis of the deposited data

How the results depend on the processing

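No paired analysis was possible because each protein has 1 library, and no replicate could be left out. The median log2 ratio of the members stayed below 0 in each of 8 alternatives. It was -1.01 for distinct reads, -0.33 for mean reads per cluster, -0.64 for clusters and -1.15 with TMM scaling. With scaling by total reads, which puts the median gene at 0.16, it was -0.96. It was -1.12 with no minimum on reads, -1.13 at a minimum of 50 reads and -1.20 over 40 members with missing genes at 0. Members higher in the ZC3H7A library numbered 14, where 18.0% of all genes were called. They numbered 9 with distinct reads (10.1% of all genes), 5 by mean reads per cluster (4.65%) and 0 by clusters (0.223%), so the background fell too. In the other settings over 35 members they numbered 13 or 14, where 15.5 to 19.1% of all genes were called. With missing genes at 0 they numbered 19 of 40 (47.5%), where 23.5% of all genes were called. That setting treats absence as a count of 0 reads, which it is not. Those higher in the ZC3H7B library numbered 3, where 18.2% of all genes were called. They numbered 0 with distinct reads (7.28% of all genes), 1 by mean reads per cluster (6.18%) and 0 by clusters (0.321%). By mean reads per cluster, with intervals that take the cluster numbers as fixed, 9 members changed sign. PSMD4, called in reads, went to 0.21 (-0.70 to 1.01). Of those not called, PSMB1 went from -0.69 to 0.45 (0.31 to 0.59), PSMA4 from -0.30 to 0.30 (0.19 to 0.41), PSMD11 from -0.09 to 0.59 (0.31 to 0.87) and PSMD7 from 0.39 to -0.33 (-0.57 to -0.09), and the new intervals of PSMA5, PSMD1, PSMD10 and PSMG2 include 0. By clusters 5 changed sign and by distinct reads 2, PSMA5 and PSME4, each with a new interval that includes 0. The cause was not tested. As a median over members with at least 3 clusters, the coding share in the ZC3H7B library was 57.1%, the 3' UTR shares were 0% and 15.4%, and the T-to-C share over all members was 94.9% and 91.8%. Leaving out PSME3, PSMD12 and PSMF1, chosen after seeing the data, gave a coding share of 54.2% in the ZC3H7B library and 3' UTR shares of 10.5% and 22.7%. At least 50 reads were held by 34 and 28 members. Coding clusters per codon were not run. Depth limits the members with under 10 distinct reads, 8 with ZC3H7A tagged and 2 with ZC3H7B tagged.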
